A study of Mus musculus with 6 samples.

Results

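Endothelial and endocardial genes were examined in cells that had been differentiated from mouse embryonic stem cells toward pacemaker cells of the sinoatrial node. The set holds 37 markers of vessel lining and of endocardium, the inner lining of the heart, chosen by gene symbol. All 37 were among the 30631 genes in each of the 6 deposited tables, and all 37 were tested, since they reached 10 normalized reads in 3 or more libraries, as did 17034 genes in all. Of the 37, 29 reached 10 in every library and 8 (Cldn5, Sox7, Sox18, Icam2, Nos3, Vwf, Clec14a and Myct1) fell short of it somewhere, each having reached it under both labels. The libraries fall into 3 labelled Shox2-/- (knockout) and 3 labelled wild type, all of them cells sorted for the surface protein CD166 at a stage given as 7+1 days, with no treatment named. Before differentiation in hanging drops, the stem cell clones of both groups were grown on mouse embryonic fibroblasts. The 3 knockout titles share a single prefix, J2, while the wild type titles carry H1II, H1I and, in library 3, a run of digits, so genotype and clone cannot be told apart. The labels leave out how the Shox2 allele was made. They do not state whether libraries of 1 group came from separate cultures either, and p-values then reflect the spread between these libraries, which may be technical. The titles also carry Diff7, Diff8 and Diff9 (knockout) and Diff9, Diff9 and Diff811 (wild type), whose meaning the labels do not explain. Wherever 3 values are given for a label, they follow the order of libraries 1, 2 and 3.

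Shox2 itself, a homeobox gene of pacemaker development, was at 201, 548 and 373 in the knockout-labelled libraries, against 89.6, 83.4 and 31.4 in the wild type-labelled ones (normalized read counts). It was higher in all 3 libraries labelled knockout, log2 change 2.46 (SE 0.50, limma adjusted p = 0.201), so every direction below is a direction between labels. Alcam, which encodes CD166, was at 4176, 5312 and 4304 in the knockout-labelled libraries, against 6591, 6526 and 5841 in the wild type-labelled ones, log2 change -0.47 (SE 0.12, limma adjusted p = 0.242). It was lower in all 3 libraries labelled knockout, as were 10.8% of all genes tested. Reads assigned to genes ranged over the libraries from 13504683 to 34650564, and library 1 of each label was the shallowest. Libraries 1 and 2 labelled wild type were the closest pair, with a median absolute difference of 0.092 on the log2 scale over all genes tested, against 0.18 to 0.40 in the other 14 pairs. At an unadjusted p under 0.05 in an exact binomial test per gene, they still differed in 12.2% of genes, against 41.3% to 63.6% in the other pairs. Counting error alone would also give some genes at that threshold. Each of these libraries counted as a sample.

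Endothelial cells arise from mesoderm that carries the VEGF receptor Kdr. The ETS factor Etv2 acts briefly at the top of the program, and Tal1, Lmo2, Fli1, Erg, Gata2 and the SoxF factors Sox7 and Sox18 carry it on; several of these factors also serve early blood cells, which share that mesoderm. Mature endothelium is held together by VE-cadherin, claudin-5 and other junction proteins and depends on VEGF, angiopoietin, apelin and sphingosine phosphate signals. Endocardium adds Nfatc1 and Npr3.

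No endothelial or endocardial gene passed the test between labels, and all 37 varied more between libraries of 1 label than the median gene did. With limma over all genes, 0 of the 37 members were called at an adjusted p under 0.05, where 0% of all 17034 genes were called, and adjusted p of the members lay between 0.287 and 0.997. At an unadjusted p under 0.05 there were 4 members (10.8%), against 14.2% of all genes tested. Of these 4, Emcn, Flt1 and Npr3 were lower in the libraries labelled knockout (background 7.23%) and Etv2 was higher (background 6.92%). The same 4 were the members whose groups did not overlap, which is 10.8% of the set and 23.6% of all genes tested. The median log2 change was -0.22 over the members and 0.013 over all genes, with 23 members lower and 14 higher. Over all genes tested, 8211 were lower and 8823 higher. The sign of the members' median depended on the setting: it was 0.13 with a term for the Diff9 libraries, 0.0092 with limma voom and -0.55 with voom sample quality weights.

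Libraries that carry the same label could differ nearly as widely as libraries of different labels. The median absolute log2 difference over the members was 0.38 to 1.21 between pairs labelled knockout and 0.11 to 1.11 between pairs labelled wild type, against 0.35 to 1.36 between pairs of different labels. Library 1 labelled knockout and library 3 labelled wild type held the 2 lowest values of 22 of the 37 members, a count made after the values were seen. Over all genes tested these were the 2 lowest libraries in 8.55%. Library 3 labelled wild type was the lowest of the 6 for 19 members and library 1 labelled knockout for 13. Library 1 labelled wild type was the highest for 15 and library 2 labelled knockout for 9. In that order, the shares of the members were 51.4%, 35.1%, 40.5% and 24.3%. The same shares of all genes tested were 26.6%, 23.0%, 13.1% and 18.1%. The median deviation of the members from their own mean over the 6 libraries was -0.80, 0.19 and 0.22 on the log2 scale in libraries 1, 2 and 3 labelled knockout, against 0.58, 0.50 and -0.80 in those labelled wild type. Over all genes tested the corresponding medians lay between -0.0049 and 0.016. All 37 members had a residual spread within labels above the all-gene median of 0.24 (log2 SD). The members' median of 0.75 was exceeded by 8.22% of all genes, and by 7.27% of the 15597 genes whose mean value lay in the members' range. In bulk RNA, fewer cells of a type and less RNA per cell cannot be told apart.

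**Figure D1:**
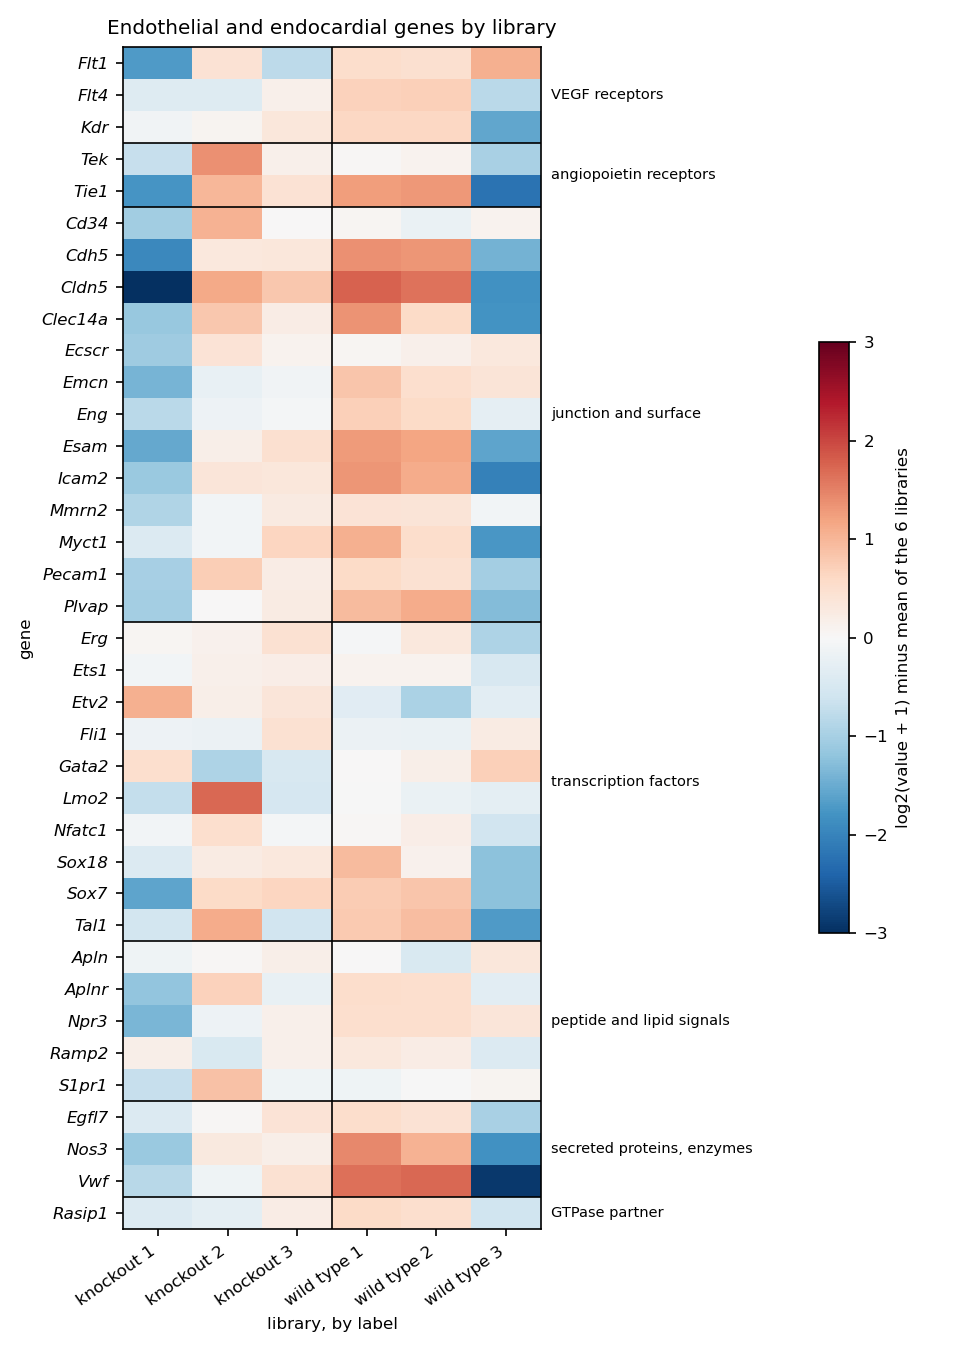
Heat map of the 37 genes (rows, grouped by role) in the 6 libraries (columns, labelled knockout left, labelled wild type right); colour is log2(value + 1) minus the gene's mean over the 6 libraries. The columns of library 1 labelled knockout and library 3 labelled wild type are the bluest, with median deviations of -0.80 each.

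The promoters of 5 members are shown because their genes stand for both patterns: Emcn, Flt1 and Etv2 did not overlap between labels, and Tie1 and Cldn5, chosen after their values were seen, spread widely within labels. Each run is 300 bases from 250 before to 50 after the RefSeq start, in the gene's direction, and capitals mark every GGAA or its complement TTCC, the core that ETS factors bind.
Emcn (GRCm38.p6 chr3:137340828-137341127, plus strand): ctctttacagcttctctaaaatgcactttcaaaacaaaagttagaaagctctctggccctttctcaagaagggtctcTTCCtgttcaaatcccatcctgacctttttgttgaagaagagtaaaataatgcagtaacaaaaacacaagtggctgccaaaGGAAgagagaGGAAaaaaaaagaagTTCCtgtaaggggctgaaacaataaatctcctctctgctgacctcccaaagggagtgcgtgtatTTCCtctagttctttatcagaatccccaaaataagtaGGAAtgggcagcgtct
Flt1 (GRCm38.p6 chr5:147725962-147726261, minus strand): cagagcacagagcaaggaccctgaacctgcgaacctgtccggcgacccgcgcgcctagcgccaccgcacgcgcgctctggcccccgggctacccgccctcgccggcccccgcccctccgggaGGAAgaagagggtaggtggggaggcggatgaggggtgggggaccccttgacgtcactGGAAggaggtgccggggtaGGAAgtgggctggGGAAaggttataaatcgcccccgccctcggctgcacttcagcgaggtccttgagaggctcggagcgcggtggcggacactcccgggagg
Etv2 (GRCm38.p6 chr7:30635803-30636102, minus strand): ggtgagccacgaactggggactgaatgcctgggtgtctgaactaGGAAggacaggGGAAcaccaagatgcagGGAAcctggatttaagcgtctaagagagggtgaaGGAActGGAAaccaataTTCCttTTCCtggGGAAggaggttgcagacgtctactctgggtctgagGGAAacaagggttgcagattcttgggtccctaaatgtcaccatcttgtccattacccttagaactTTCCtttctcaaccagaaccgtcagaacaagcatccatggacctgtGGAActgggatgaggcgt
Tie1 (GRCm38.p6 chr4:118489800-118490099, minus strand): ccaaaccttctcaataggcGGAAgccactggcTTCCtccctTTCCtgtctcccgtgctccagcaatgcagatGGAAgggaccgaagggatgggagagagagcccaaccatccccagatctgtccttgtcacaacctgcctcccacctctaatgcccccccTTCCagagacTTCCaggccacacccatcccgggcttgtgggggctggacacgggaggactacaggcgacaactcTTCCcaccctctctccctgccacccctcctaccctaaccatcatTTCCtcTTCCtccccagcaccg
Cldn5 (GRCm38.p6 chr16:18776597-18776896, plus strand): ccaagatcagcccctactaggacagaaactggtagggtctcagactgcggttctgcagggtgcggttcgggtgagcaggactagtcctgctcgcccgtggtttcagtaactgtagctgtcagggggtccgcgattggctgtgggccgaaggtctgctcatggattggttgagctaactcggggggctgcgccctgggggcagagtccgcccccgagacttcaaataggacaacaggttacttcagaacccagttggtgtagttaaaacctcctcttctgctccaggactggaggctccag

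The RefSeq table held promoters for 19 of the 37 members, and the first listed start of each gene was searched on both strands. The ETS core GGAA occurred in 17 of the 19, against 95.9% of 27025 promoters of the same length. It was found 11 times in the Etv2 promoter, 9 times in that of Tie1, 6 times in that of Emcn and 4 times in that of Flt1, and not at all in those of Cldn5 and Npr3. Npr3, whose promoter is not printed, also did not overlap between labels. AACAGGAA, a joined FOX and ETS motif that contains GGAA, occurred in 2 of the 19 (Emcn and Egfl7) and in 2.58% of all promoters. The longer ETS form CCGGAAG, which also contains GGAA, occurred in 0 of 19 and in 9.12% of all. The GATA motif AGATAA was found in 3 of 19 (11.4% of all) and the E-box CANNTG in 13 of 19 (72.1% of all). These matches describe letters in a 300-base window and are no evidence of binding.

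Levels of different genes were compared per kilobase of annotated exon. Kdr and the ETS factor gene Ets1 were the most abundant, at a mean over the 6 libraries of 904 and 727 normalized reads per exon kilobase. Their ranges over libraries (279 to 1249.7 and 510.5 to 827) overlapped, so their order was not settled. Tek (309) and Egfl7 (200.1) came next. Among the others were Ramp2 at 154, Ecscr at 104, Pecam1 at 82.5, Cdh5 at 40.1, Cldn5 at 39.1, Nos3 at 8.82 and Vwf at 7.01. Gata2, at 4.59, and Sox7, at 4.61, were the lowest of the 37, with overlapping ranges. No member was at 0 in any library, but 11 of the 222 member values rested on fewer than 10 reads, and the lowest, Cldn5 in library 1 labelled knockout, on 1 read.

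**Figure D2:**
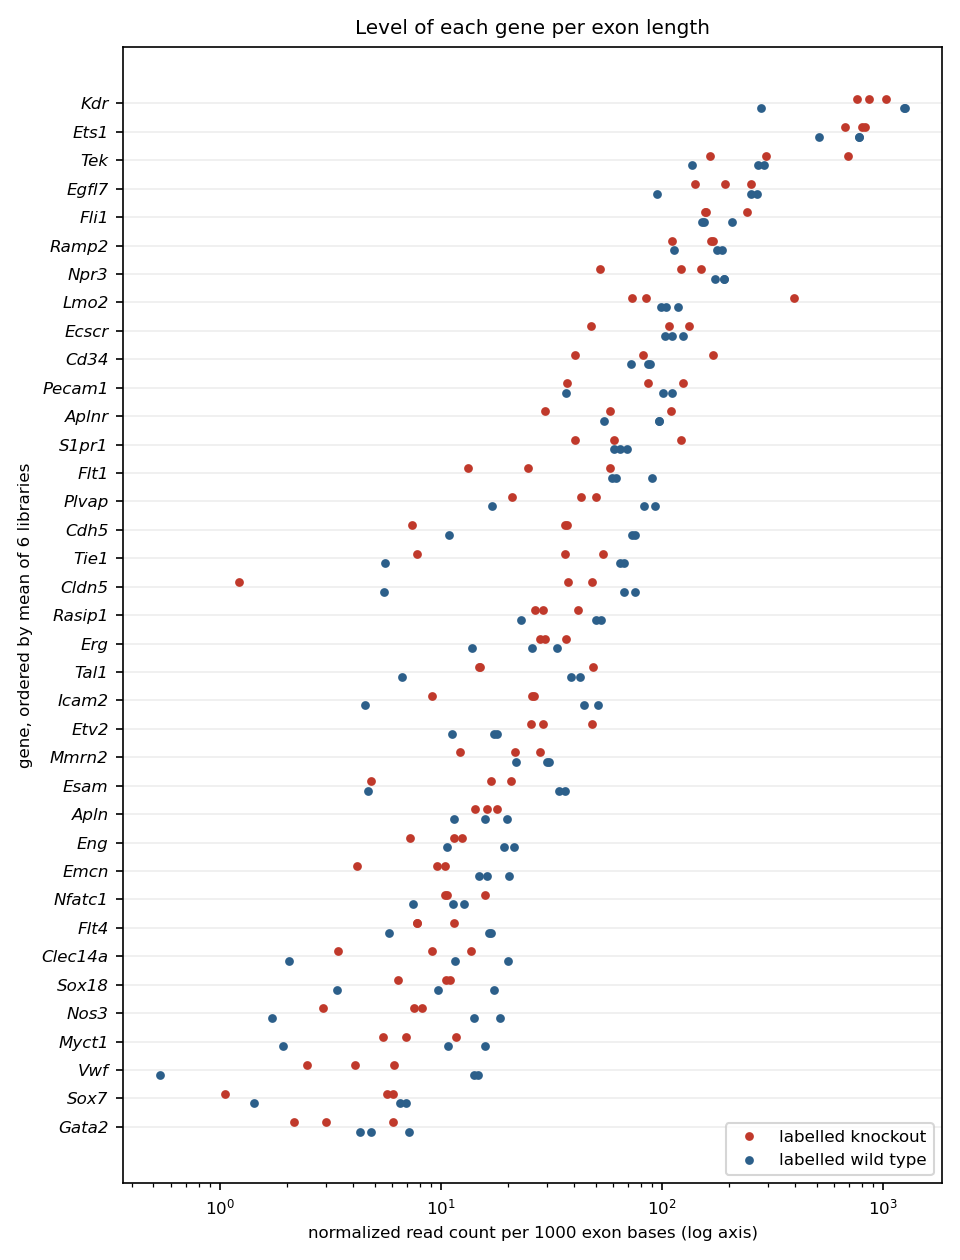
Normalized reads per exon kilobase on a log axis for the 37 genes, ordered by their mean over 6 libraries; each point is 1 library, red for labelled knockout (upper row of each gene) and blue for labelled wild type (lower row). Kdr and Ets1 lie highest, and in genes such as Cldn5, Tie1 and Vwf the points of 1 label spread over more than a factor of 10.

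Among VEGF receptors, Kdr (ENSMUSG00000062960, chromosome 5, 75932827 to 75978458, minus strand), the main signalling receptor for VEGF-A and also a marker of early mesoderm, was at 6886, 7771 and 9309 in the knockout-labelled libraries, against 11235, 11284 and 2518 in the wild type-labelled ones. Library 3 labelled wild type was the lowest of all, and the 2 other libraries labelled wild type were above all 3 labelled knockout, so the groups overlapped. The log2 change was 0.21 (SE 0.55, 95% interval -1.07 to 1.496, limma adjusted p = 0.881). Flt1 (ENSMUSG00000029648, chromosome 5, 147561604 to 147726011, minus strand), a high-affinity VEGF-A receptor with weak signalling that also exists as a secreted decoy, was at 178, 781 and 335 in the knockout-labelled libraries, against 837, 804 and 1214 in the wild type-labelled ones. Its groups did not overlap, although the highest value labelled knockout (781) lay close to the lowest labelled wild type (804). It averaged 431 ± 313 under the knockout label and 952 ± 228 under the wild type label (SD, n = 3 each), a log2 change of -1.37 (SE 0.49, 95% interval -2.52 to -0.23, limma adjusted p = 0.301). Unlike Kdr, Flt1 was highest in library 3 labelled wild type. Flt4 (ENSMUSG00000020357, chromosome 11, 49609263 to 49652739, plus strand), the receptor of VEGF-C and VEGF-D, was at 64.0, 64.3 and 94.1 in the knockout-labelled libraries, against 136, 139 and 47.9 in the wild type-labelled ones, with a log2 change of -0.40 and overlapping groups.

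The angiopoietin receptors showed that overlap more widely. Tek (ENSMUSG00000006386, chromosome 4, 94739289 to 94874976, plus strand), which encodes Tie2, was at 775, 3276 and 1390.3 in the knockout-labelled libraries, against 1281, 1358 and 645 in the wild type-labelled ones. Library 2 labelled knockout held more than any other library, and the log2 change was 0.55 (SE 0.52, 95% interval -0.67 to 1.77, limma adjusted p = 0.654). Tie1 (ENSMUSG00000033191, chromosome 4, 118471191 to 118490061, minus strand), the partner receptor of Tie2 that binds no angiopoietin strongly, was at 38.1, 266 and 179 in the knockout-labelled libraries, against 315, 328 and 27.5 in the wild type-labelled ones. Its highest library was 11.95 times its lowest, and both of the lowest, one from each label, lay far under the rest. The log2 change of -0.22 (SE 1.08, 95% interval -2.75 to 2.31, limma adjusted p = 0.938) thus had an interval that reached far to both sides of 0.

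Of the 13 junction and surface genes, 11 had a negative and 2 a positive log2 change, with a median log2 change of -0.48, and 0 were called. In 9 of the 13 the 2 lowest libraries were library 1 labelled knockout and library 3 labelled wild type. Cdh5 (ENSMUSG00000031871, chromosome 8, 104101625 to 104144511, plus strand), which encodes VE-cadherin, the adhesion protein of endothelial junctions, was at 31.1, 153 and 156 in the knockout-labelled libraries, against 317, 308 and 45.5 in the wild type-labelled ones. Its log2 change was -0.85 (SE 0.89, 95% interval -2.95 to 1.25, limma adjusted p = 0.689). Cldn5 (ENSMUSG00000041378, chromosome 16, 18776847 to 18778262, plus strand), a tight junction protein, was at 1.73, 67.9 and 53.3 in the knockout-labelled libraries, against 106, 95.2 and 7.85 in the wild type-labelled ones. The lowest of these values stands for 1 read, and the log2 change was -1.05 (SE 1.43, 95% interval -4.40 to 2.29, limma adjusted p = 0.764), the widest interval of the set. Esam, an immunoglobulin-like junction protein, was at 13.8, 48.3 and 59.3 in the knockout-labelled libraries, against 105, 97.8 and 13.3 in the wild type-labelled ones. Icam2, an adhesion ligand for leukocyte integrins, was at 17.3, 50.05 and 48.9 in the knockout-labelled libraries, against 97.9, 84.1 and 8.64 in the wild type-labelled ones. In Cdh5, Cldn5, Esam and Icam2 alike, libraries 1 and 2 labelled wild type were the highest and libraries 2 and 3 labelled knockout intermediate.

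Pecam1 (ENSMUSG00000020717, chromosome 11, 106654217 to 106750628, minus strand), the CD31 adhesion molecule, which platelets and leukocytes also carry, was at 232, 770.5 and 536 in the knockout-labelled libraries, against 689, 629 and 228 in the wild type-labelled ones, with a log2 change of -0.014 (SE 0.55, 95% interval -1.29 to 1.26, limma adjusted p = 0.993). Its averages were 513 ± 270.1 under the knockout label and 515 ± 251 under the wild type label (SD, n = 3 each), a difference far smaller than the spread within either label. Plvap, which forms the diaphragms of fenestrae and caveolae, was at 41.5, 84.9 and 99.99 in the knockout-labelled libraries, against 164, 185 and 33.8 in the wild type-labelled ones. Clec14a, a C-type lectin receptor, was at 15.6, 62.6 and 41.5 in the knockout-labelled libraries, against 91.3, 52.8 and 9.42 in the wild type-labelled ones. Its matrix ligand Mmrn2 spread less, over 48.4 to 111 in libraries labelled knockout and 86.4 to 123 in those labelled wild type. Eng, endoglin, a co-receptor for BMP9 and TGF-beta, covered 29.4 to 50.4 in libraries labelled knockout and 43.2 to 86.3 in those labelled wild type, with a log2 change of -0.68 (SE 0.35, 95% interval -1.51 to 0.15, limma adjusted p = 0.422). Myct1, a membrane protein of endothelium, had a range of 15.6 to 33.3 in libraries labelled knockout and 5.50 to 44.8 in those labelled wild type. Library 2 labelled knockout was the highest of the 6 for Pecam1, and library 1 or 2 labelled wild type for Plvap, Clec14a and Myct1.

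Emcn (ENSMUSG00000054690, chromosome 3, 137341067 to 137432185, plus strand), which encodes endomucin, a sialomucin of venous and capillary endothelium and of endocardium, was the junction or surface gene that separated the labels. It was at 22.5, 51.8 and 56.3 in the knockout-labelled libraries, against 109.5, 87.3 and 80.1 in the wild type-labelled ones. All 3 libraries labelled knockout were lower, the closest pair of values being 56.3 and 80.1. The averages were 43.5 ± 18.4 under the knockout label and 92.3 ± 15.3 under the wild type label (SD, n = 3 each), a log2 change of -1.16 (SE 0.38, 95% interval -2.04 to -0.28, limma adjusted p = 0.287). Cd34, a sialomucin of endothelium and of blood progenitors, was, like Pecam1, highest in library 2 labelled knockout, at 292, 1242 and 599 in the knockout-labelled libraries, against 626, 525 and 645 in the wild type-labelled ones. Ecscr, a regulator of endothelial migration, was also highest there, at 83.0, 231 and 187 in the knockout-labelled libraries, against 181, 195 and 217 in the wild type-labelled ones.

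**Figure D3:**
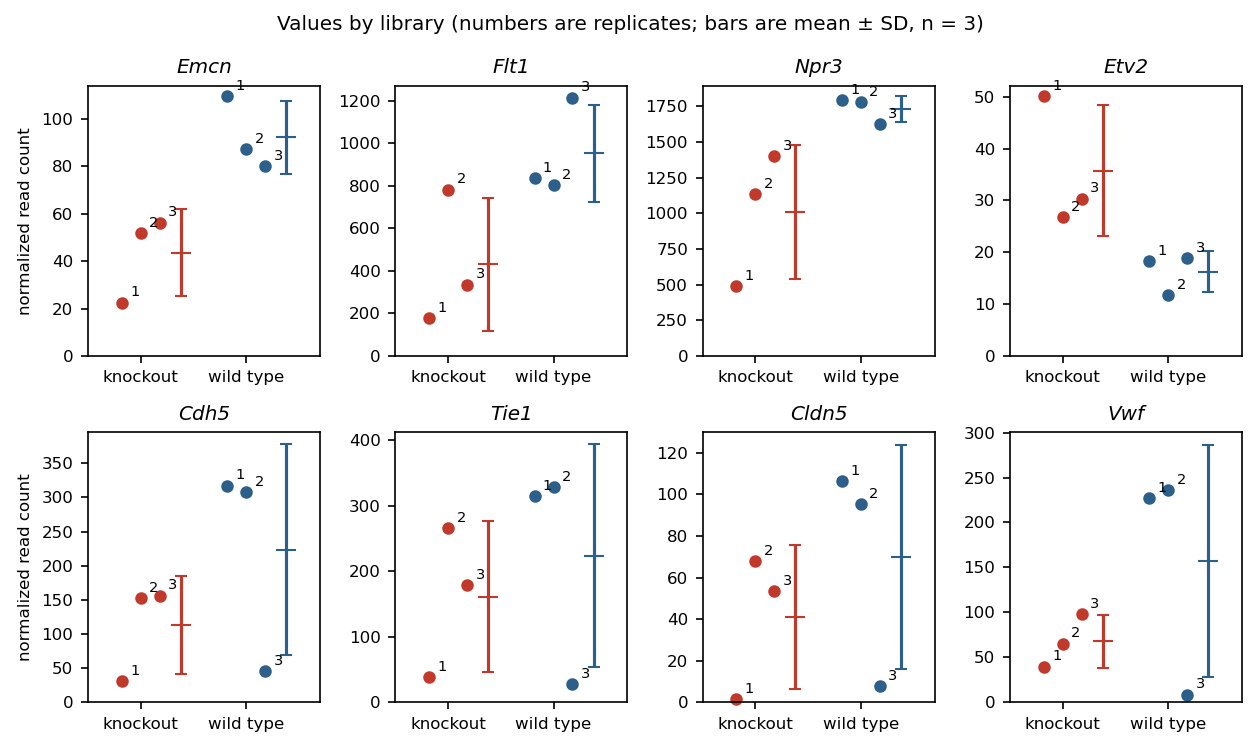
Normalized read counts of 8 genes, 1 point per library with its replicate number, labelled knockout in red (left) and labelled wild type in blue (right), with mean and SD (n = 3) at the right of each group. Emcn, Flt1, Npr3 and Etv2 (upper row) do not overlap between labels, whereas in Cdh5, Tie1, Cldn5 and Vwf (lower row) replicate 1 labelled knockout and replicate 3 labelled wild type are the 2 lowest points.

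The 10 transcription factor genes varied less between libraries than the junction genes (median residual SD 0.53 against 1.06, a description with no test), and 7 had a positive and 3 a negative log2 change, with 0 called. Etv2 (ENSMUSG00000006311, chromosome 7, 30633616 to 30635852, minus strand), the ETS factor that starts the endothelial and blood program and is then switched off, was at 50.2, 26.8 and 30.4 in the knockout-labelled libraries, against 18.3, 11.7 and 18.8 in the wild type-labelled ones. All 3 libraries labelled knockout were higher. The values rest on 29, 30 and 41 reads in libraries labelled knockout and on 11, 18 and 24 in those labelled wild type. They averaged 35.8 ± 12.6 under the knockout label and 16.3 ± 3.95 under the wild type label (SD, n = 3 each), a log2 change of 1.07 (SE 0.36, 95% interval 0.23 to 1.91, limma adjusted p = 0.289). Etv2 was highest in library 1 labelled knockout, where the junction genes were at or near their lowest.

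The other ETS factors stayed closer to level. Ets1 (ENSMUSG00000032035, chromosome 9, 32636221 to 32757820, plus strand), which is also active in many mesenchymal cells, was at 5702, 6763 and 7014 in the knockout-labelled libraries, against 6579, 6586 and 4327 in the wild type-labelled ones, and its log2 change of 0.18 (SE 0.18, 95% interval -0.25 to 0.61, limma adjusted p = 0.687) had an interval within a 2-fold change in both directions. Fli1, which blood cells also use, was at 548, 543 and 841 in the knockout-labelled libraries, against 538, 528 and 718 in the wild type-labelled ones, log2 change 0.10 (SE 0.21, 95% interval -0.40 to 0.60, limma adjusted p = 0.859). Erg, the ETS factor of mature endothelium, was at 96.9, 102 and 127 in the knockout-labelled libraries, against 89.6, 115 and 47.9 in the wild type-labelled ones, with a log2 change of 0.44. For Fli1 and Erg library 3 labelled knockout was the highest of the 6, as it was for Ets1.

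Both Tal1 and Lmo2, which early blood cells use as well, peaked in library 2 labelled knockout. Tal1 (ENSMUSG00000028717, chromosome 4, 115056426 to 115071755, plus strand), a basic helix-loop-helix factor needed for blood and for endocardium, was at 65.7, 212 and 65.2 in the knockout-labelled libraries, against 169, 186 and 29.1 in the wild type-labelled ones. Its log2 change was -0.0079 (SE 0.78, 95% interval -1.83 to 1.81, limma adjusted p = 0.997). Lmo2, the LIM protein that bridges Tal1 and GATA factors, was at 157, 854 and 183 in the knockout-labelled libraries, against 256, 224 and 213 in the wild type-labelled ones. Its log2 change was 0.34 over all 6 libraries and -0.44 once library 2 labelled knockout was left out. Gata2, a zinc finger factor of blood progenitors and endothelium, was lowest in that same library, at 32.9, 11.6 and 16.3 in the knockout-labelled libraries, against 23.2, 26.1 and 38.5 in the wild type-labelled ones. The SoxF genes were scarce: Sox7 was at 3.46, 18.8 and 20.0 in the knockout-labelled libraries, against 21.6, 22.8 and 4.71 in the wild type-labelled ones, and Sox18 at 10.4, 16.98 and 17.8 in the knockout-labelled libraries, against 28.2, 15.6 and 5.50 in the wild type-labelled ones. Both were lowest in library 1 labelled knockout and library 3 labelled wild type, on 2 to 7 reads. Nfatc1, the endocardial factor of valve formation, covered 77.8 to 118 in libraries labelled knockout and 55.7 to 95.2 in those labelled wild type.

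Among peptide and lipid signals, Npr3 (ENSMUSG00000022206, chromosome 15, 11839896 to 11907287, minus strand), the clearance receptor for natriuretic peptides and a marker of endocardium, separated the labels. It was at 489.6, 1136 and 1398 in the knockout-labelled libraries, against 1793, 1781 and 1627 in the wild type-labelled ones. Its 3 values labelled wild type lay close together and library 1 labelled knockout lay furthest below them. The averages were 1008 ± 468 under the knockout label and 1734 ± 92.2 under the wild type label (SD, n = 3 each), a log2 change of -0.91 (SE 0.35, 95% interval -1.74 to -0.081, limma adjusted p = 0.326). The log2 changes of the endocardial genes Npr3 (-0.91) and Nfatc1 (0.23) had opposite signs, and neither gene was called.

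Apln, the peptide ligand apelin, covered 45.0 to 56.3 in libraries labelled knockout and 35.9 to 62.8 in those labelled wild type. Its receptor gene Aplnr, also expressed in early cardiac mesoderm, was at 109, 403 and 216 in the knockout-labelled libraries, against 358, 357 and 201 in the wild type-labelled ones. S1pr1, the sphingosine-1-phosphate receptor that steadies vessel sprouting, was at 123, 369 and 184 in the knockout-labelled libraries, against 184, 197 and 212 in the wild type-labelled ones. Both receptor genes were lowest in library 1 and highest in library 2 labelled knockout. Ramp2, which makes the calcitonin receptor-like receptor respond to adrenomedullin, covered 364 to 562 in libraries labelled knockout and 373 to 614 in those labelled wild type. It shares 33.4% of its exon bases with Vps25 on the same strand, so its reads may be divided between them.

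Secreted proteins and enzymes of mature endothelium had the widest spread within labels of any role with more than 2 genes (median residual SD 1.38, log2). Vwf (ENSMUSG00000001930, chromosome 6, 125546774 to 125686679, plus strand), von Willebrand factor, the clotting protein stored by endothelium, was at 39.8, 65.2 and 98.5 in the knockout-labelled libraries, against 227, 236 and 8.64 in the wild type-labelled ones. The highest library held 27.3 times the value of library 3 labelled wild type, which rests on 11 reads. The log2 change was -0.32 (SE 1.18, 95% interval -3.08 to 2.45, limma adjusted p = 0.917). Nos3, the endothelial nitric oxide synthase, was at 12.1, 33.96 and 31.1 in the knockout-labelled libraries, against 76.3, 58.0 and 7.07 in the wild type-labelled ones, and 25.2% of its exon bases are shared with the antisense gene Gm15587. Egfl7 (ENSMUSG00000026921, chromosome 2, 26580014 to 26593120, plus strand), a secreted angiogenic factor whose gene hosts the microRNA miR-126, was at 505, 689 and 899.9 in the knockout-labelled libraries, against 963, 903 and 341 in the wild type-labelled ones, log2 change 0.027 (SE 0.41, 95% interval -0.94 to 0.99, limma adjusted p = 0.982). Rasip1, a Ras-interacting protein needed for lumen formation, was at 84.8, 92.1 and 133 in the knockout-labelled libraries, against 169, 161 and 73.8 in the wild type-labelled ones, and 20.4% of its exon bases are shared with Izumo1.

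The width of these intervals sets what the comparison could show. For 7 members (Egfl7, Fli1, Ets1, Ramp2, Nfatc1, Apln and S1pr1) the 95% interval lay within 1 on the log2 scale in both directions, that is, within a 2-fold change, and for the other 30 it reached 1 or beyond. Leaving out each library in turn left 0 members called, yet the members' median log2 change was -0.70 when library 3 labelled wild type was omitted and 0.22 when library 1 labelled knockout was. Without library 2 labelled knockout, 0.303% of all genes were called, 51 in number, and 0 members. Without library 3 labelled wild type, 21 members no longer overlapped between labels (41.9% of all genes tested there), and 12 had an unadjusted p under 0.05 against 16% of all genes. Without both that library and library 1 labelled knockout, 25 members did not overlap (52.5% of all genes) and the median was -0.42. Since those were the 2 lowest libraries of 22 of the 37 members, leaving them out is no independent check. Cdh5, Flt1, Flt4, Emcn, Eng, Erg, Etv2, Gata2, Mmrn2, Rasip1, Npr3 and Aplnr were the 12 members whose sign was kept in every alternative that tested them, 10 of them lower and Etv2 and Erg higher under the knockout label. That was 17 alternatives for 10 of them and 16 for Etv2 and Gata2, which a filter on a mean of at least 50 removed.

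**Figure D4:**
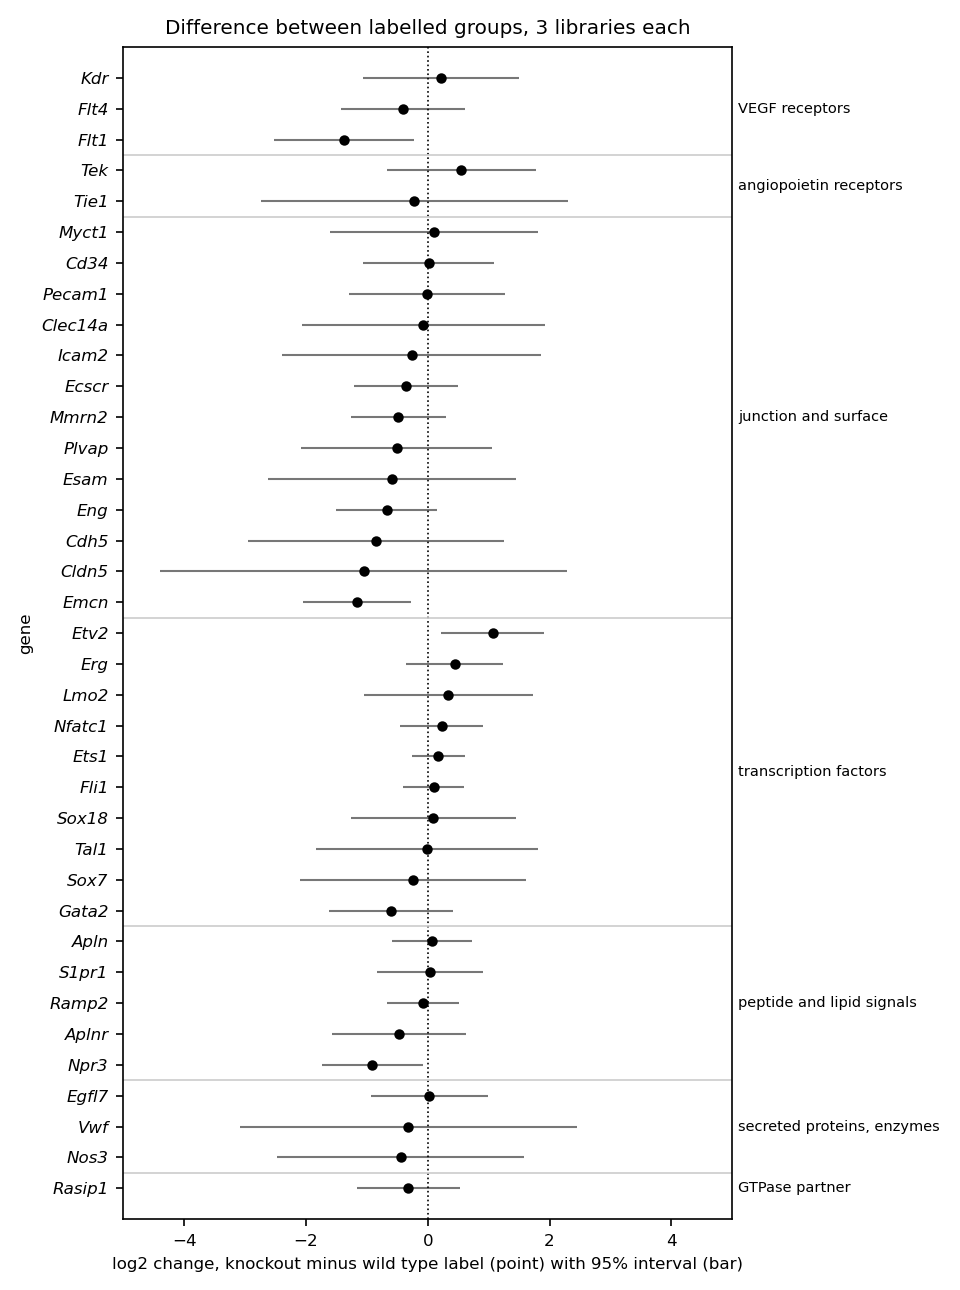
Log2 change (libraries labelled knockout minus libraries labelled wild type) of the 37 genes by role, point with 95% interval from limma, 3 libraries per label. The intervals of Flt1, Emcn, Npr3 and Etv2 do not reach 0, and that of Cldn5 is the widest, from -4.40 to 2.29.

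Library 3 labelled knockout and libraries 1 and 2 labelled wild type share the title number Diff9. Within these 3 libraries, 27 of the 37 members were lower in the library labelled knockout than in both labelled wild type, 6 were higher than both and 4 lay between. Over all genes tested the library labelled knockout was lower than both in 38.4% and higher than both in 43.4%. The median difference was -0.31 (log2) over the members and 0.019 over all genes. Tal1 (-1.43), Flt1 (-1.29) and Vwf (-1.23) differed most downward, and Etv2 (1.00) most upward. With a single library labelled knockout there is no replicate check on these differences.

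Cardiomyocyte markers mostly shared the 2 lowest libraries of the members, and the other cell type lists did so less or not at all. The 12 cardiomyocyte markers, all detected in every library, summed to 14972, 27977 and 39226 in the knockout-labelled libraries, against 32823, 31184 and 11768 in the wild type-labelled ones (normalized read counts). In 10 of the 12 the 2 lowest libraries were again library 1 labelled knockout and library 3 labelled wild type. Ttn, the giant sarcomere protein titin, was at 4509, 10882 and 17592 in the knockout-labelled libraries, against 12189, 11245 and 2982 in the wild type-labelled ones, and Tnni1, slow skeletal troponin I, at 5285, 6424 and 8669.8 in the knockout-labelled libraries, against 5939, 5664 and 3347 in the wild type-labelled ones. The 13 junction and surface members summed to 844, 2913 and 2033 in the knockout-labelled libraries, against 2740.2, 2486 and 1423 in the wild type-labelled ones. Markers of the sinoatrial list, mesenchyme and mural cells did not share this order: those were the 2 lowest libraries in 0 of 10 genes of each list. The sinoatrial list summed to 7114, 7462 and 6613 in the knockout-labelled libraries, against 5776, 5683 and 9539 in the wild type-labelled ones. Its high sum in library 3 labelled wild type was mostly Smoc2, at 445, 1246 and 1730 in the knockout-labelled libraries, against 1859, 1756 and 5712 in the wild type-labelled ones. In that list 5 genes had a positive and 5 a negative log2 change. The mesenchyme list summed to 174672, 208275 and 260839 in the knockout-labelled libraries, against 327324, 322741 and 452233 in the wild type-labelled ones. Most of that was Col3a1 in every library, and 4 genes had a positive and 6 a negative log2 change. The mural list summed to 54481, 59258 and 60154 in the knockout-labelled libraries, against 50675, 49930.1 and 56156 in the wild type-labelled ones. The mural sum was mostly Acta2, smooth muscle actin, at 32856, 41693 and 42742 in the knockout-labelled libraries, against 36376, 36544 and 38286 in the wild type-labelled ones. Of the 10 mural genes, 7 had a negative log2 change (list median -0.95), and 0 were called. In 6 of them the groups did not overlap (lower in 10.8% of all genes tested) and the unadjusted limma p was under 0.05 (lower in 7.23%). On the higher side, 1 mural gene met both (12.8% and 6.92% of all genes). The part of cell composition in the members' spread was not tested.

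Blood markers bear on Cd34, Tal1, Lmo2, Gata2, Fli1 and Pecam1, which blood cells also express. The 12 blood and erythroid markers summed to 3958, 20209.9 and 4466 in the knockout-labelled libraries, against 20428, 19558 and 1324 in the wild type-labelled ones. In every library but library 3 labelled wild type, most of that came from embryonic globin genes: Hbb-bh1 was at 1524, 9696 and 1231 in the knockout-labelled libraries, against 7441, 7150.4 and 60.5 in the wild type-labelled ones, and Hbb-y at 1304, 5803 and 1931 in the knockout-labelled libraries, against 7846, 7207 and 76.2 in the wild type-labelled ones. The 10 leukocyte markers summed to 349, 5761 and 652 in the knockout-labelled libraries, against 1212, 1128 and 2956 in the wild type-labelled ones. Cx3cr1, the fractalkine receptor of macrophages, was at 53.6, 1199 and 120.0 in the knockout-labelled libraries, against 176, 149.9 and 418 in the wild type-labelled ones, and Ptprc, the pan-leukocyte protein CD45, at 25.9, 1151 and 72.6 in the knockout-labelled libraries, against 163, 158 and 525 in the wild type-labelled ones. Library 2 labelled knockout was the highest for 7 of the 10 leukocyte markers. The other 3 leukocyte markers (Cd68, Aif1 and Cd48) were highest in library 3 labelled wild type. Among the members, library 2 labelled knockout was the highest for 9: Cd34, Tal1, Lmo2, Tek, Pecam1, Ecscr, Nfatc1, Aplnr and S1pr1. That was 24.3% of the members, against 18.1% of all genes tested that were highest in the same library. By contrast, Gata2 was lowest there, and Fli1 was highest in library 3 labelled knockout. Spi1, a blood marker, was at 0 in library 1 labelled knockout, and Cd48, a leukocyte marker, at 0 in 4 of the 6 libraries. The 5 lymphatic endothelial markers found summed to 574, 1069.9 and 630.3 in the knockout-labelled libraries, against 1124, 1111 and 442 in the wild type-labelled ones. The part of blood cells in these values was not tested.

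**Figure D5:**
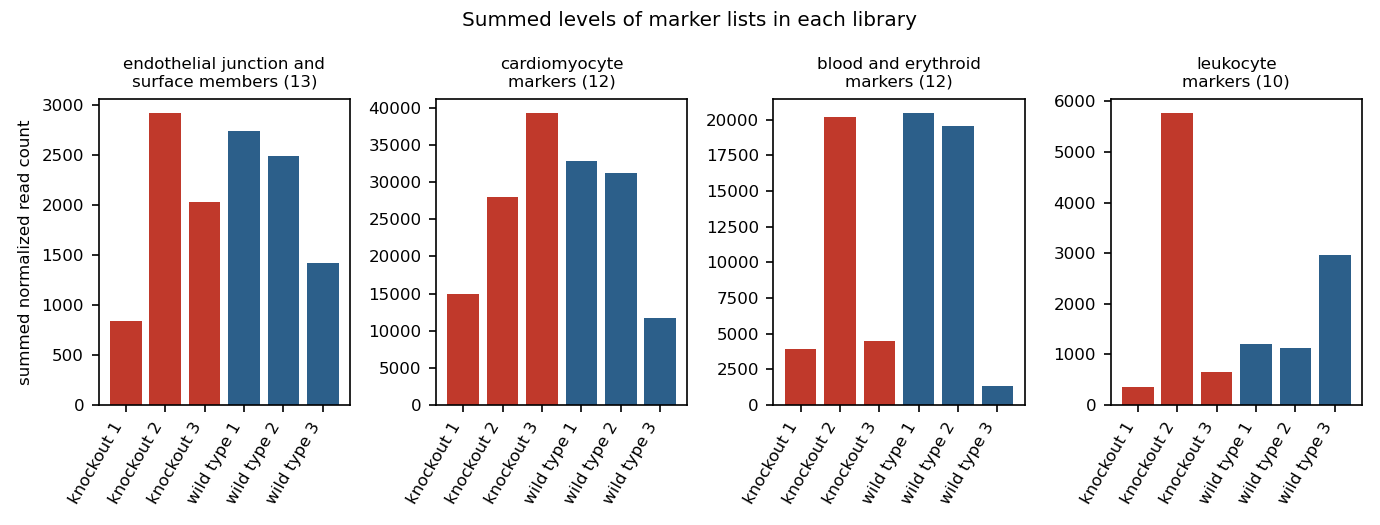
Summed normalized read counts of 4 gene lists in each library (bars from 0; labelled knockout in red at the left, labelled wild type in blue at the right). Endothelial junction and surface members and cardiomyocyte markers are both lowest in library 1 labelled knockout and library 3 labelled wild type, blood markers in library 3 labelled wild type, and the leukocyte sum is highest in library 2 labelled knockout.

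Around the members, 85 further genes of endothelial signalling and identity were examined, of which 82 passed the filter. In limma 0 of the 82 were called, 7 had an unadjusted p under 0.05 on the higher side (background 6.92%) and 8 on the lower (7.23%). The groups did not overlap in 10 of the 82 on the higher side (12.8% of all genes tested) and in 9 on the lower (10.8%). The list's median log2 change was -0.24, with 50 genes lower and 32 higher. In 24 of the 82 (29.3%) the 2 lowest libraries were library 1 labelled knockout and library 3 labelled wild type, against 59.5% of the members and 8.55% of all genes.

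Among VEGF and angiopoietin ligands and co-receptors (14 tested), Angptl4, a lipase inhibitor induced by low oxygen and fatty acids, was at 38.1, 40.2 and 48.1 in the knockout-labelled libraries, against 99.6, 113 and 179 in the wild type-labelled ones, log2 change -1.57 (SE 0.28, limma adjusted p = 0.182). Ptprb, the phosphatase VE-PTP that restrains Tie2, had a log2 change of -0.99 (SE 0.39, limma adjusted p = 0.333). Pgf, placental growth factor, another ligand of Flt1, had a log2 change of 0.51 (SE 0.25, limma adjusted p = 0.398). Of the Notch and ephrin genes (14 tested), Nr2f2, the venous identity factor, was at 647, 787 and 778 in the knockout-labelled libraries, against 1563, 1539 and 1430.4 in the wild type-labelled ones, log2 change -1.04 (SE 0.12, limma adjusted p = 0.0954), and Efnb2, the arterial ephrin, was at 3298, 2541 and 2167 in the knockout-labelled libraries, against 1632, 1851 and 1384 in the wild type-labelled ones, log2 change 0.71 (SE 0.18, limma adjusted p = 0.232). Hey1, a Notch target, had a log2 change of -0.45 (SE 0.15, limma adjusted p = 0.287). The groups did not overlap for Pgf and Efnb2, higher under the knockout label, or for Angptl4, Ptprb, Nr2f2 and Hey1, lower under it.

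In the BMP, TGF-beta, sphingosine phosphate, apelin and adrenomedullin group (13 tested), Bmp6 was at 65.7, 100.1 and 76.3 in the knockout-labelled libraries, against 26.6, 39.1 and 37.7 in the wild type-labelled ones, log2 change 1.203 (SE 0.28, limma adjusted p = 0.224). Bmp4 had a log2 change of 0.33 (SE 0.10, limma adjusted p = 0.271) and the TGF-beta receptor gene Tgfbr2 a log2 change of -0.90 (SE 0.29, limma adjusted p = 0.287). Of 15 other transcription factors tested, Mef2c, a MADS-box factor of heart muscle and vessels, was at 2571, 4022 and 3054 in the knockout-labelled libraries, against 1783, 1916 and 1756 in the wild type-labelled ones, log2 change 0.80 (SE 0.16, limma adjusted p = 0.201). Elk3, an ETS factor, had a log2 change of 0.38 (SE 0.11, limma adjusted p = 0.257), and Klf2, which responds to blood flow, a log2 change of -1.27 (SE 0.40, limma adjusted p = 0.278). Among 26 other surface and junction genes, Hapln1, a hyaluronan link protein of the cardiac jelly, was at 2919, 1654 and 2515 in the knockout-labelled libraries, against 1157, 1236 and 950.0 in the wild type-labelled ones, log2 change 1.05 (SE 0.22, limma adjusted p = 0.201). Cav1, the coat protein of caveolae, had a log2 change of -2.01 (SE 0.48, limma adjusted p = 0.226), and Stab1, a scavenger receptor that macrophages also carry, a log2 change of -2.09 (SE 0.79, limma adjusted p = 0.315). In that group 20 genes were lower and 6 higher. The groups above it, in order, had 7 lower and 7 higher, 8 and 6, 7 and 6, and 8 and 7. With voom sample quality weights, Angptl4 and Nr2f2 were called lower and Mef2c, Elk3 and Hapln1 higher (limma adjusted p 0.00642 to 0.0484), where 1.78% of all genes were called, and 0 members. In that fit Shox2 was called higher (log2 change 2.15, limma adjusted p = 0.0185) and Alcam lower (-0.53, limma adjusted p = 0.0331). The weights were 3.59 and 4.22 for libraries 1 and 2 labelled wild type, the closest pair of libraries, and 0.21 for library 3 labelled wild type. Libraries labelled knockout had weights of 0.58 to 0.88. These calls thus rest mainly on that close pair for the wild type label.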

How the data were processed

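Bulk RNA-seq of 6 libraries was analysed from gene-level tables. Tools named by the submitters' processing notes are DESeq2 1.14.0, HTSeq, BWA and CASAVA 1.8.2, and the build is mm10; which step each performed is not stated. From the values, the deposited numbers are read counts that the authors divided by 1 size factor per library: after division by the recovered step, 100% of values were whole within 0.1 reads. The knockout-labelled libraries hold 13782017, 26199927 and 31151471 such reads, and the wild type-labelled ones 13504683, 34650564 and 29916220. Neither the kit nor the use of strand in counting is known from the labels, so reads of overlapping genes are uncertain, which concerns 8 members that share exon bases with another gene. Replicate numbers follow accession order.

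Values were tested as log2(value + 1), which understates changes of low genes, with limma 3.58.1 in R 4.3.3 (1 term for the label, trended empirical Bayes, two-sided, Benjamini-Hochberg over the 17034 genes reaching 10 in 3 or more libraries); the threshold for a call was 0.05 on the adjusted p. The fit was also run on simulated counts with 1 common spread beyond counting error for all genes and libraries. That setting lacks the wide spread of the members, so the run does not show how the test performs for them. Alternatives changed pseudocount, filter, scaling, test and libraries. Planned edgeR and DESeq2 fits were not run; limma voom on the recovered reads was. Positions and exon lengths are from GENCODE M21 (GRCm38, the assembly of mm10), and promoters from RefSeq, GRCm38.p6.

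The members, lists and tests were chosen with earlier results of these data known. Genes named were all members, Shox2, Alcam, the 3 genes of lowest p in each pathway group, and up to 2 of the most abundant markers of a cell type list; Spi1, Cd48, Cd68 and Aif1 were chosen after their values were seen. Of 85 pathway genes, Cavin2 was matched by its gene ID.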

Additional observations from a re-analysis of the deposited data

How the results depend on the processing

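In each of the 17 alternatives 0 of the members tested were called, and the lowest adjusted p of a member was 0.0948 (without library 2 labelled knockout). Of the 37 members, 12 kept their sign in every alternative that tested them (a filter on a mean of at least 50 left 30 members and removed Etv2 and Gata2 of these 12) and 25 did not; the cause was not tested. Genes called over the whole table numbered 303 with voom sample quality weights, 2 with no filter on low values and 0 to 51 when each library was left out in turn. The sample quality weights were highest for libraries 1 and 2 labelled wild type and lowest for library 3 of that label. Called pathway genes numbered 5 with those weights and 0 to 2 with each library left out, the 2 being Hapln1 and Nr2f2 without library 2 labelled knockout. Members whose groups did not overlap numbered 4 to 21 with each library left out (28.7% to 41.9% of all genes), against 4 (23.6%) with all 6. They numbered 25 with both library 1 labelled knockout and library 3 labelled wild type omitted (52.5% of all genes). Those were the 2 lowest libraries of 22 members. The members' median log2 change lay between -0.70 and 0.22 with each library left out. A term for the Diff9 libraries gave a median of 0.13, and the planned edgeR and DESeq2 fits were not run. No paired analysis was possible because the groups share a single title number, Diff9. Few reads limit Cldn5, Sox7, Sox18, Nos3 and Myct1, which rest on 1 to 10 reads in both library 1 labelled knockout and library 3 labelled wild type. Of these libraries, library 1 labelled knockout was shallow (13782017 reads assigned to genes) and library 3 labelled wild type was not (29916220).

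With both of those libraries omitted, the log2 change was -0.40 for Kdr, -0.24 for Egfl7, -0.26 for Sox18, 0.15 for Ecscr and -0.52 for Myct1. With libraries 1 and 2 labelled wild type averaged, the log2 change was 0.24 for Pecam1, 0.36 for Tie1, 0.42 for Tal1, 0.094 for Sox7, 0.032 for Ramp2, 0.27 for Icam2, -0.017 for Cd34, 0.063 for Nos3, 0.45 for Vwf, 0.36 for Clec14a and -0.037 for Apln. With limma voom, the log2 change was 0.15 for Pecam1, 0.091 for Tie1, 0.10 for Tal1, 0.0092 for Sox7 and 0.22 for Clec14a. With voom sample quality weights, the log2 change was -0.42 for Kdr, -0.30 for Egfl7, -0.21 for Sox18, -0.028 for Nfatc1 and -0.42 for Myct1. With scaling by library totals, the log2 change was -0.012 for Egfl7 and -0.025 for Cd34. With scaling by upper quartiles, the log2 change was -0.010 for Cd34. With a term for the Diff9 libraries, the log2 change was 0.30 for Pecam1, 0.50 for Tie1, 0.077 for Esam, 0.28 for Tal1, 0.29 for Sox7, 0.079 for Ramp2, 0.00082 for Plvap, 0.39 for Icam2, -0.016 for Cd34, 0.17 for Nos3, 0.60 for Vwf, 0.45 for Clec14a and -0.022 for S1pr1.

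With each library left out in turn, the range of the log2 change was -0.52 to 0.48 for Pecam1, -1.39 to 0.61 for Tie1, -2.23 to 0.44 for Cldn5, -1.53 to 0.038 for Esam, -0.86 to 0.45 for Tal1, -0.92 to 0.49 for Sox7, -1.35 to 0.33 for Icam2, -1.46 to 0.17 for Nos3, -1.85 to 0.46 for Vwf, -0.66 to 0.076 for Ecscr, -0.99 to 0.58 for Clec14a, -0.0017 to 1.04 for Tek, -0.44 to 0.78 for Lmo2, -0.49 to 0.59 for Sox18, -0.31 to 0.12 for Ramp2, -0.51 to 0.53 for Cd34, -0.39 to 0.40 for S1pr1, -0.46 to 0.29 for Egfl7, -0.11 to 0.24 for Fli1, -0.14 to 0.25 for Apln, -0.74 to 0.67 for Myct1, -0.51 to 0.58 for Kdr and -0.026 to 0.28 for Ets1.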
